A study of Mus spretus with 8 samples.

Results

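The genes examined are those of the urea cycle and of hepatic ammonia handling, 10 in all: Nags, Cps1, Otc, Ass1, Asl, Arg1, the mitochondrial carriers Slc25a15 and Slc25a13, Gls2 and Glud1. They were found by symbol in the probe annotation of the microarray, which gave 21 probes for 9 of the 10 genes, out of 42957 probes and 22471 named genes in all. Gls2 was not analysed here, because no probe of the annotation used carried that symbol. Otc had 11 probes, Ass1 and Glud1 had 2 each, and the other 6 genes had 1 each. The study compared livers of male mice of the species Mus spretus (inbred SPRET/EiJ strain), with 4 mice on a Harlan diet with corn oil (control) and 4 mice on the same diet with p,p'-DDE in the oil at 450 mg/kg (DDE). p,p'-DDE is the long-lived breakdown product of the insecticide DDT. The mice were 7 weeks old and ate these diets for 30 days, and 1 array was hybridised per liver.

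The urea cycle converts toxic ammonia and the nitrogen of aspartate into urea, and it runs at full length almost only in hepatocytes. Its first steps lie in the mitochondrion, where Nags makes the activator of Cps1, Cps1 joins ammonia with bicarbonate, and Otc makes citrulline. The later steps, Ass1, Asl and Arg1, lie in the cytosol, so ornithine and aspartate must cross the inner mitochondrial membrane through carriers. Glud1 releases or binds ammonia at glutamate, and glutamine synthetase (Glul) takes up, in hepatocytes around the central vein, the ammonia that escapes the cycle.

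Values are log2 signals, so a difference of 1 is a doubling, and they differ between probes in binding as well as in transcript amount, so no gene's level is set against another's. The 0.95 quantile of the olfactory and vomeronasal receptor probes of an array was taken as its background (7.55 to 7.81), and all 21 probes lay above it on all 8 arrays. Of all probes, 40.2% (DDE 4) to 46.9% (DDE 2) lay above it. The shares over all probes or all genes given below thus include probes below background. Limma called 1289 of 42957 probes at an adjusted p under 0.05, or 3.00%, with 1005 higher and 284 lower after DDE. All 10 hepatocyte markers (Alb, Ttr and others) were above background on all arrays, and 8 of them had at least 7 of 8 values within 0.5 of the top of the scale at 16, so a rise in them would hardly show. Of the other 2, Hpd was 13.27 ± 0.25 in controls and 13.93 ± 0.35 after DDE (SD, n = 4) without overlap and did not pass (limma adjusted p = 0.161), and Tat was 11.96 ± 0.37 and 12.15 ± 0.93 (adjusted p = 0.853). All 5 pancreatic enzyme genes measured were above background in every liver, Cela1 at 8.62 (control 2) to 13.91 (control 1). Their part in the results was not tested. In a liver homogenate, fewer cells of a type and less RNA per cell cannot be told apart.

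No probe of the urea cycle or of Glud1 passed the test. Of the 21 probes 0 were called by limma, beside 3.00% of all probes (2.34% called higher and 0.661% called lower), and their smallest adjusted p was 0.146. At an unadjusted p under 0.05 there were 6 (28.6%), beside 15.0% of all probes, with 4 higher and 2 lower, beside 10.7% and 4.22% of all probes. Of these, 3 were Otc probes and 2 were the pair of Glud1 probes, so they stand for 3 genes. Only 1 of the 21 probes had groups that did not overlap, beside 11.8% of all probes. Each gene was then described by its lead probe, the one with the highest mean over all arrays. At these 9 probes 5 means were higher and 4 lower after DDE, and the changes ran from -0.62 (Ass1) to 0.67 (Arg1) with a median of 0.03, beside 0.02 over all genes. With 4 mice a group these numbers leave wide intervals for several genes, and a missed threshold does not show that the groups were alike.

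**Figure D1:**
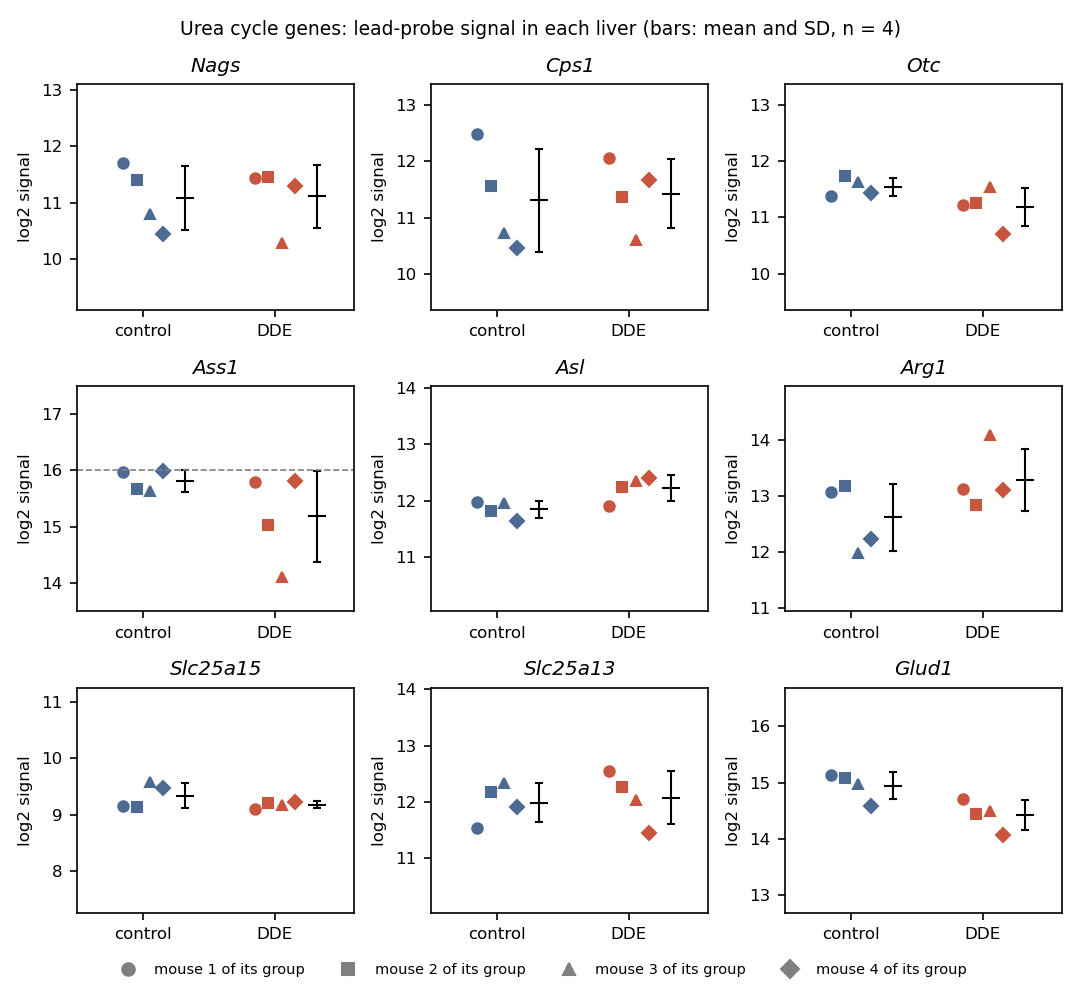
Log2 signal of the lead probe of each of the 9 genes in each liver, controls in blue and DDE in red, with 1 mark per mouse, the mean and SD beside them, and every vertical axis spanning 4 log2 units. The groups overlap in every panel, and the 4 control values of Ass1 lie close to the dashed line at 16, the top of the scale.

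Nags, whose product N-acetylglutamate switches on Cps1, had 11.70, 11.41, 10.79 and 10.44 in the controls and 11.43, 11.45, 10.28 and 11.30 after DDE. The low values were those of controls 3 and 4 and of DDE 3, and the groups overlapped almost fully. Its change was 0.03 (95% interval -0.84 to 0.90, limma adjusted p = 0.973).

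Cps1, the rate-limiting enzyme of the cycle, had 12.48, 11.57, 10.73 and 10.46 in the controls and 12.06, 11.37, 10.61 and 11.67 after DDE. Its spread between mice of a group (SD 0.91 in controls and 0.61 after DDE, n = 4 each) was far larger than the change of 0.12 (interval -1.06 to 1.30, limma adjusted p = 0.92). As for Nags, controls 3 and 4 and DDE 3 were the lowest arrays. The interval of Cps1 takes in anything from a halving to a doubling, so its 1 probe sets only a loose limit.

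Otc, which joins carbamoyl phosphate and ornithine to citrulline, gave opposite directions at its probes. At the lead probe the controls had 11.38, 11.73, 11.62 and 11.43 and the DDE livers 11.22, 11.26, 11.53 and 10.71. All 4 DDE values were below the control mean, with DDE 3 inside the control range, and the change was -0.36 (interval -0.78 to 0.06, limma adjusted p = 0.433). The other 10 probes all had higher means after DDE, with changes from 0.11 to 1.25, a median of 0.56 and adjusted p from 0.146 to 0.822. Averaged over these 10 probes, the controls had 11.17, 10.70, 10.55 and 10.27 and the DDE livers 11.16, 11.36, 11.13 and 11.25. Here control 1 alone reached the level of the DDE livers, and the mean of DDE 2 includes a value of 14.32 in row 468. The files used hold no probe sequence, so these 10 probes may be repeats of 1 sequence, and they are not independent measurements.

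The 10 Otc probes also spread within single arrays, and on some arrays the spread followed the row of the probe. In control 4 they ran from 10.64 in row 111 to 9.60 in row 388. This leaves out 11.39 in row 151, which lay in a stained patch (a stretch of the array with locally shifted signal). In control 3 they ran from 11.03 in row 111 to 9.91 in row 468. In DDE 2, patches left out, the lowest value was 9.93 in row 249 and the highest 11.47 in row 262. There the spread did not follow the row. In control 1 and DDE 1 the same probes stayed within 0.28 and 0.39 of each other. With probes in stained patches left out, the slope was -0.0094 per 100 rows in control 1, -0.091 in DDE 2 and 0.098 in DDE 4. It was -0.34 in control 3, -0.27 in control 4 and -0.30 in DDE 3. The same 3 arrays had the lowest slopes beyond Otc. Over the 105 genes with at least 10 probes and a mean of at least 9, the median slope was lowest in DDE 3 (-0.17), control 4 (-0.15) and control 3 (-0.15) and highest in DDE 4 (0.073). Cps1 (row 512) and Nags (row 344) lie in the lower part of the array, and their lowest values came from control 3, control 4 and DDE 3. Arg1 (row 325) had its lowest values in controls 3 and 4 but its highest, 14.09, in DDE 3. The part of the slopes in these values was not tested.

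**Figure D2:**
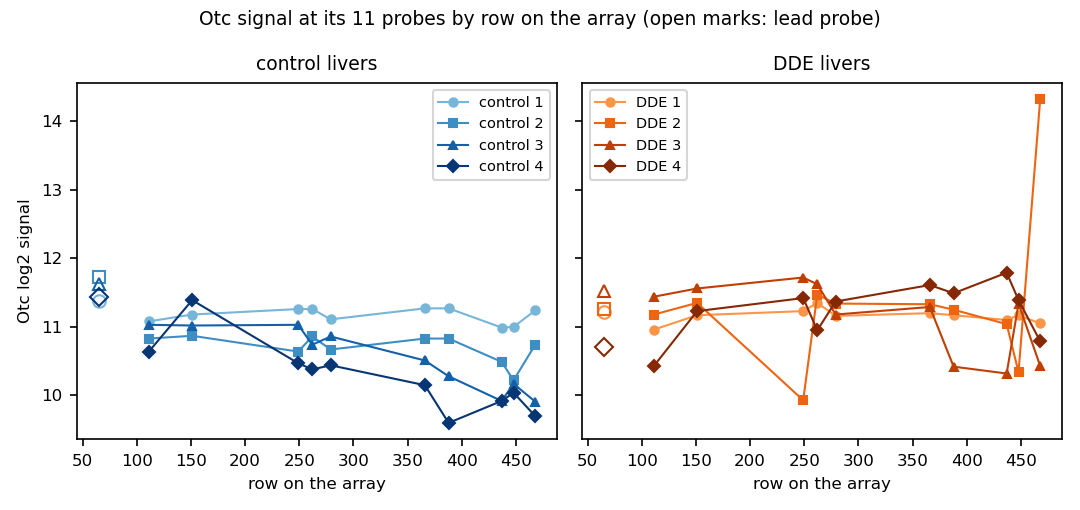
Log2 signal of the 11 Otc probes against their row on the array, controls on the left and DDE livers on the right, with 1 line per array and the lead probe as open marks. Controls 3 and 4 fall towards the higher rows, control 1 and DDE 1 stay level, and DDE 2 has 1 value of 14.32 in row 468.

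Because of this pattern the comparison was repeated after subtracting, from every probe with a mean of at least 9, the median deviation of the other such probes around it on the same array. This correction was chosen after the values were seen. It narrowed the spread of the 10 Otc probes in control 4 (SD 0.36 to 0.23, patches left out) and control 3 (0.45 to 0.26), and widened it in control 1 (0.11 to 0.18). It called 2681 probes, or 6.24%, and 2 of them were among the 21, both lower after DDE, beside 2.48% of all probes called lower and 3.76% called higher. One was the Otc lead probe, where the corrected signal was 11.62, 11.73, 11.68 and 11.68 in controls and 10.89, 10.84, 11.01 and 11.07 after DDE, and the change was -0.73 (limma adjusted p = 0.00338). The groups no longer overlapped at this probe. The subtracted shift itself differed between the groups there, with a mean of -0.14 in controls and 0.226 after DDE. Without the subtraction the change was -0.36, so its size and the call depend on that step. The other 10 Otc probes kept higher means after DDE, from 0.15 to 0.98, with 0.23 as their smallest adjusted p. Over those 10 probes the mean difference fell to 0.32 (10.79 ± 0.20 in controls and 11.11 ± 0.083 after DDE, SD over n = 4 livers, patches left out) from 0.47 before the correction. So the direction for Otc depends on the probe in both versions, and no single change can be given for the gene.

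Ass1, which condenses citrulline with aspartate, sat near the top of the scale. At the lead probe the controls had 15.97, 15.66, 15.63 and 15.98 and the DDE livers 15.80, 15.02, 14.11 and 15.81. The scale ends at 16, and 6 of these 8 values were within 0.5 of it, so the control level may be underestimated and a fall may be larger than measured. Of the DDE values 3 were below the control mean and that of DDE 4 equalled it (15.81), and the change was -0.62 (interval -1.52 to 0.27, limma adjusted p = 0.54). Most of that came from DDE 3, and without this mouse the change was -0.27 (adjusted p = 0.684). The dimmer Ass1 probe had 15.53, 14.73, 14.02 and 15.10 in controls and 15.13, 14.96, 13.71 and 15.30 after DDE. There the groups overlapped fully (change -0.070, adjusted p = 0.947), and array 3 of each group was the lowest.

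Asl splits argininosuccinate into arginine and fumarate. Its signal was 11.97, 11.82, 11.96 and 11.64 in controls and 11.90, 12.25, 12.35 and 12.41 after DDE. All 4 DDE values were above the control mean, and only DDE 1 fell within the control range. The change of 0.38 (interval 0.065 to 0.69) had an unadjusted p of 0.0244 and did not pass (limma adjusted p = 0.226).

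Arg1, liver arginase, releases urea from arginine. Controls had 13.07, 13.18, 11.98 and 12.24, and DDE livers had 13.13, 12.83, 14.09 and 13.10. Here DDE 3 was the highest of all and controls 3 and 4 the lowest, while the other 5 values lay between 12.83 and 13.18. The change was 0.67 (interval -0.21 to 1.55, limma adjusted p = 0.492), and with the local shift subtracted it was 0.37 (adjusted p = 0.584).

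Slc25a15, the mitochondrial carrier that exchanges ornithine and citrulline, had 9.16, 9.14, 9.58 and 9.47 in controls and 9.10, 9.21, 9.17 and 9.23 after DDE. The 2 higher values were those of controls 3 and 4, and the one of control 4 lay in a stained patch of its array. The change was -0.16 (interval -0.43 to 0.11, limma adjusted p = 0.606). It was -0.079 without control 3 (adjusted p = 0.731) and -0.053 with the local shift subtracted (interval -0.41 to 0.30, adjusted p = 0.863). Slc25a13, also called citrin, exports aspartate from mitochondria for Ass1. It had 11.53, 12.17, 12.34 and 11.91 in controls and 12.55, 12.26, 12.04 and 11.44 after DDE, so the highest and the lowest value both came from DDE livers. Its change was 0.085 (interval -0.55 to 0.72, adjusted p = 0.889).

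Glud1, glutamate dehydrogenase, which links glutamate to free ammonia in the mitochondrion, had lower means after DDE at both probes. At the lead probe the controls had 15.13, 15.09, 14.98 and 14.59 and the DDE livers 14.71, 14.44, 14.49 and 14.07. The DDE values lay below the control mean in 4 of 4 livers, and only DDE 1 exceeded the lowest control, control 4. The change was -0.52 (interval -0.92 to -0.12, unadjusted p = 0.0184), the smallest p of the 9 lead probes, and it did not pass (limma adjusted p = 0.191). At the other probe the values were 14.72, 14.95, 14.33 and 14.87 in controls and 14.48, 14.39, 14.33 and 14.11 after DDE, a change of -0.39 (adjusted p = 0.283). The 2 probes lie at opposite ends of the array, in rows 17 and 531. With the local shift subtracted the row 17 probe was at -0.76 and passed (adjusted p = 0.0274), and the lead probe was at -0.57 and did not (adjusted p = 0.18). At the row 17 probe the mean subtracted shift was -0.224 in controls and 0.148 after DDE, so the size of its change and its call depend on that step.

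**Figure D3:**
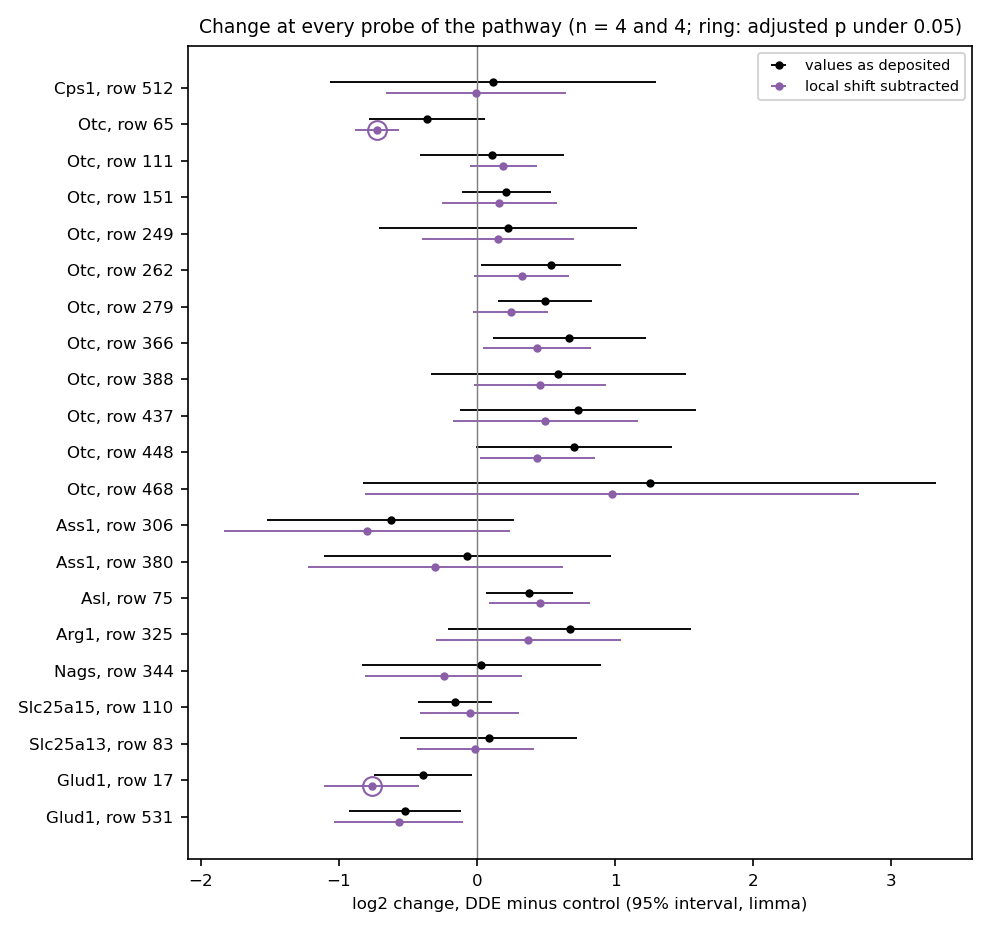
Log2 change (DDE minus control) with its 95% interval from limma at each of the 21 probes, in black for the values as deposited and in purple with the local shift subtracted; rings mark an adjusted p under 0.05. Without the correction no probe passes, with it the Otc probe in row 65 and the Glud1 probe in row 17 pass as lower, and the other 10 Otc probes lie right of 0 in both versions.

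Of all other named genes, those whose lead probes ran most alike with that of Glud1 over the 8 arrays were Ceacam2 (Pearson r = 0.988), A26c3 (0.982) and Gata3 (0.982), chosen as the highest of 22462 genes. Ceacam2, a cell adhesion gene, went from 10.86 ± 0.45 to 9.74 ± 0.50 (SD, n = 4) without overlap and did not pass (limma adjusted p = 0.122). A26c3 and Gata3 were below background on all 8 arrays.

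Genes around the cycle moved at single points. Among 30 measured enzymes and mitochondrial carriers of ammonia, amino acids and related metabolites, 23 were above background on every array. Of the 30, 3 fell, 1 rose and 26 did not pass (13.3% called, beside 3.35% of the lead probes of all genes, 2.58% higher and 0.774% lower). Before adjustment 5 were higher and 6 lower at p under 0.05 (11.4% and 4.57% of all lead probes), and the median change was 0.005, beside 0.02 over all genes. The 3 that fell were Got1, Slc25a22 and Glul, each by more than the spread within either group.

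Got1, the cytosolic aspartate aminotransferase, interconverts glutamate and the aspartate that Ass1 consumes. It had 13.94, 14.35, 14.23 and 13.97 in controls and 13.13, 12.77, 12.95 and 12.49 after DDE. The groups did not overlap, and the fall was 2.44-fold (limma adjusted p = 0.0128, and adjusted p = 0.0521 without DDE 2). Its mitochondrial counterpart Got2 had 14.04 ± 0.16 and 14.02 ± 0.20 (SD, n = 4; adjusted p = 0.932), and the difference between the 2 genes was not tested.

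Slc25a22, a mitochondrial glutamate carrier, had 11.50, 11.67, 11.29 and 11.28 in controls and 10.55, 10.18, 10 and 10.09 after DDE. That is 2.35-fold lower (limma adjusted p = 0.0119), with the lowest control above the highest DDE liver. Slc25a12, the other aspartate carrier of the citrin type, had 8.66 ± 0.42 and 8.75 ± 0.14 (adjusted p = 0.857).

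Glul, which fixes ammonia as glutamine, had 13.05, 12.89, 13.53 and 13.00 in controls and 12.05, 12.07, 11.86 and 11.84 after DDE. The highest DDE value, 12.07, lay below the lowest control value, 12.89, and the fall was 2.24-fold (limma adjusted p = 0.0136). Of 10 markers of pericentral hepatocytes, Glul among them, 1 fell and 0 rose (0.774% and 2.58% of all lead probes). The mean level of these 10 was 11.30 to 11.69 in controls and 11.23 to 11.78 after DDE. Those means include single high values of Axin2, 9.40 in control 3 and 11.05 in DDE 4, against 7.13 to 7.37 in the other livers. Oat, another pericentral marker, makes glutamate semialdehyde from ornithine and had 13.93 ± 0.38 and 13.30 ± 0.31 (adjusted p = 0.238). Cyp1a2, a pericentral cytochrome P450 named after its values were seen, lay the other way, with 12.43 ± 0.56 and 13.57 ± 0.38 (adjusted p = 0.117). Of 9 measured markers of periportal hepatocytes, the zone with the most urea cycle enzyme, 0 passed, beside 3.35% of all lead probes. An unadjusted p under 0.05 was found for 3, as for 3 of the 10 pericentral markers (11.4% of all lead probes higher and 4.57% lower). Of the periportal ones Gldc was higher and Hal and Cyp2f2 were lower. Cyp2f2 had 15.65 ± 0.14 and 15.22 ± 0.090 without overlap (limma adjusted p = 0.0531). The mean level of the 9 periportal markers was 12.64 to 13.06 in controls and 12.22 to 12.61 after DDE, which did not overlap. That gap rested on Cdh1, whose spot in control 4 lay in a stained patch at 15.65. Without Cdh1, a step chosen after the values were seen, the mean level of the other 8 was 12.74 to 13.21 and 12.69 to 13.12, and the groups overlapped. The part of these zone markers in the results was not tested.

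Gpt2, the mitochondrial alanine aminotransferase, was the 1 gene of these 30 that rose. It had 12.30, 12.05, 12.28 and 12.21 in controls and 12.94, 13.08, 13.28 and 12.71 after DDE, 1.73-fold higher (limma adjusted p = 0.0285). The groups did not overlap, but the call was lost without any 1 of the 4 controls, DDE 1, DDE 2 or DDE 3 (adjusted p from 0.0513 to 0.0926). The control 4 value of Gpt2, 12.21, lay in a stained patch. With patches left out its log2 change was 0.79, as with them (limma adjusted p = 0.037). Uroc1, urocanase of histidine breakdown, had 12.05 ± 0.22 and 12.67 ± 0.17 and missed the threshold (adjusted p = 0.0638). Arg2, the arginase of other tissues, and Slc25a2, a second ornithine carrier, were below background on all arrays.

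Membrane transporters of urea, ammonia and amino acids gave 1 fall and 0 rises among 23 measured genes, with 11 above background on every array (4.35% called, beside 3.35% of all lead probes). The gene that fell was Slc14a2, a urea transporter best known from kidney, which had 8.69, 8.46, 8.69 and 8.52 in controls and 8.03, 8.06, 7.96 and 7.52 after DDE. This is a weak signal, below background in DDE 4, and 1.62-fold lower (limma adjusted p = 0.0444). Its call was lost without any 1 of the 4 controls, DDE 1, DDE 2 or DDE 3 (adjusted p from 0.0721 to 0.117), and its other probe had an adjusted p of 0.587. Slc38a3, the main glutamine transporter of hepatocytes, had 13.66 ± 0.18 and 13.79 ± 0.39 (adjusted p = 0.764), and Rhbg, an ammonia channel of pericentral hepatocytes, had 10.44 ± 0.43 and 10.86 ± 0.29 (adjusted p = 0.513).

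Regulators of the pathway gave 1 rise and 0 falls among 17 measured genes, with 16 above background on every array (5.88% called, beside 3.35% of all lead probes). Their median change was 0.29, beside 0.02 over all genes, which include genes below background. Nr1h4, the bile acid receptor FXR, had 12.55, 12.61, 12.47 and 12.12 in controls and 13.18, 13.26, 13.23 and 12.96 after DDE. It was 1.65-fold higher without overlap (limma adjusted p = 0.0344), and the call was lost without any 1 of controls 1, 2 and 3 or DDE 1, 2 and 3 (adjusted p from 0.06 to 0.107). The control 4 value of Nr1h4, 12.12, lay in a stained patch. With patches left out its log2 change was 0.61 (limma adjusted p = 0.0206), beside 0.72 with them. Cebpa and Hnf4a, liver transcription factors that drive urea cycle genes, had 11.55 ± 0.18 and 11.84 ± 0.43 (adjusted p = 0.626) and 12.91 ± 0.32 and 12.85 ± 0.36 (adjusted p = 0.911). Gcgr, the glucagon receptor, had 13.26 ± 0.79 and 13.43 ± 0.50 (adjusted p = 0.86), and Sirt5, a deacylase that acts on Cps1, had 10.34 ± 0.084 and 10.82 ± 0.45 (adjusted p = 0.36). Before adjustment 3 regulators were higher and 2 lower at p under 0.05 (11.4% and 4.57% of all lead probes). Besides Nr1h4 these were Cebpb (0.79, limma adjusted p = 0.164), Foxa1 (0.61, 0.23), Ppargc1a (-1.065, 0.134) and Foxa2 (-0.93, 0.262). The Foxa1 value of DDE 4 and the Ppargc1a value of control 4 lay in stained patches.

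**Figure D4:**
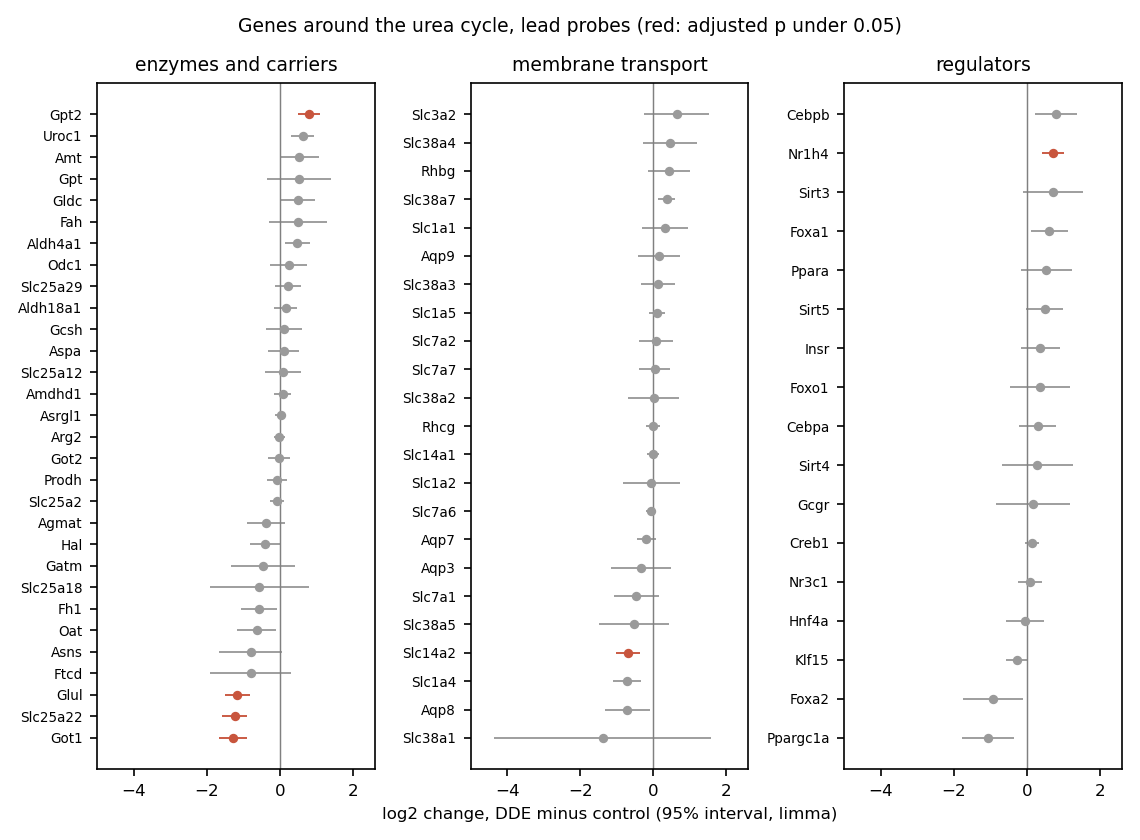
Log2 change (DDE minus control) with its 95% interval from limma for the lead probes of 30 enzymes and mitochondrial carriers, 23 membrane transporters and 17 regulators around the urea cycle, with genes of adjusted p under 0.05 in red. Got1, Slc25a22, Glul and Slc14a2 lie left of 0, Gpt2 and Nr1h4 right of it, and the intervals of most other genes cross 0.

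With the local shift subtracted, all 6 of these calls remained and 5 were added to them, 11 of 70 genes in all. Slc14a2 had a mean below 9, so nothing was subtracted from its values and its call was not put to this test. The same step raised the share of all probes called from 3.00% to 6.24%. The added genes were Slc1a4 (-0.97, limma adjusted p = 0.00392), a transporter of neutral amino acids, Agmat (-0.69, adjusted p = 0.0205), the agmatinase gene, and Fh1 (-0.68, adjusted p = 0.0151), the gene of fumarase. Nr3c1, the glucocorticoid receptor, was also lower (-0.37, adjusted p = 0.0212) and Uroc1 higher (0.64, adjusted p = 0.0113). Without the correction Nr3c1 had a change of 0.080 (adjusted p = 0.781), so its direction depends on that step.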

How the data were processed

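The 8 arrays came from the deposited value table, whose values read as log2 signals already normalized by the authors. Total liver RNA was labelled with Cy3, per the labels' protocols. The sources used here do not give the scanner, the background correction or the normalization method. Probes were named by the annotation supplied (33009 with 1 symbol, 9948 with none). The test was limma 3.58.1 (lmFit, eBayes) in R 4.3.3 without covariates, two-sided, adjusted by Benjamini-Hochberg over all probes, threshold 0.05. The number of arrays limits the precision. Probe rows (532 of 85 columns) follow from the feature numbers. A patch is a spot whose window of 7 rows by 5 columns had a median deviation beyond 0.3; the local shift used 21 rows by 41 columns. The fit was tested on simulated data. Named were all members, up to 6 called genes per list or, without any, that of smallest p, and the 3 genes most alike. Other genes named from the lists or as markers lay outside this rule. Members, lists and tests were chosen with earlier results of these data known. P-values weigh the group difference against the spread within groups, which with 1 array per mouse also holds effects of the array. Alternatives were quantile normalization, centring, leaving out dim probes, variance trend, array weights, replicate block, leaving out arrays or patches, gene means and the local shift.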

Additional observations from a re-analysis of the deposited data

Results flagged for a closer look

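Of 54 groups of 4 arrays tested for a value apart from the rest (21 member probes and 6 further named genes), 2 had one, and chance flags about 1 in 20. Nags had 10.28 in DDE 3, against 11.30 to 11.45 in the other DDE livers. The Otc probe in row 468 had 14.32 in DDE 2, against 10.43 to 11.05 in the other DDE livers, and that spot lay in a stained patch of its array.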

How the results depend on the processing

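Over all probes 1289 were called, against 2018 without dim probes, 511 with a variance trend, 2140 with array weights, 2681 with the local shift subtracted and 332 (without DDE 2) to 1596 (without DDE 4) when 1 array was left out, with 782 or fewer without any 1 of controls 1, 2 and 3 and DDE 1, 2 and 3. Of the 21 member probes 0 were called in 17 of 18 alternatives and 2 with the local shift subtracted. In the 3 lists around the cycle 6 genes were called, against 3 with a variance trend, 11 with the local shift subtracted and 2 to 7 without 1 array. The cause was not tested.

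Of 162 lead-probe values of the 9 genes, 143 kept direction and side of the threshold, 18 changed sign and 1 newly passed (Otc, local shift). Otc was 0.47 as the mean of its probes. With array weights Cps1 was -0.012 and Nags -0.035, without control 4 and DDE 4 both were -0.25, and with the local shift subtracted Cps1 was -0.0062, Nags -0.24 and Slc25a13 -0.011. Leaving out 1 array gave -0.17 to 0.51 for Cps1, -0.185 to 0.31 for Nags and -0.074 to 0.30 for Slc25a13. None of these passed.

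With the replicate number as a block 9 probes were called, with 0 of the member probes and 0 of the list genes. Same-numbered arrays correlated between -0.011 and 0.0752 across probes, and 3 of 4 controls correlated best with their own number. Correlations this small cannot tell whether the numbers pair the mice. The main fit assumed no pairing.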

Other observations

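Digestive enzyme genes of the pancreas, fixed as markers of another tissue, varied widely between livers of both groups. Cpa1 had 15.99, 11.50, 15.44 and 15.45 in controls and 15.55, 13.18, 14.38 and 15.12 after DDE, and Cela1 had 13.91, 8.62, 11.58 and 10.47 and 11.94, 9.08, 10.90 and 11.83. Mouse 2 of each group was the lowest in both genes, and neither gene passed the limma test between the groups. Skeletal muscle genes were also above background on all arrays, with Acta1 at 12.92 to 13.67 in controls and 11.34 to 13.46 after DDE. Kidney markers Umod and Slc12a1 were below background on all 8 arrays.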
